A study of Mus musculus with 16 samples.

Results

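The genes described here are 9 hepatic lipid and conjugate exporters: the ATP-binding cassette (ABC) transporters Abcb11, Abcb4, Abcc2, Abcc3, Abcc4, Abcg2, Abcg5 and Abcg8, and the phospholipid flippase Atp8b1. They were chosen by name, as the known exporters of the canalicular (bile-facing) and basolateral (blood-facing) hepatocyte membranes; the rule itself uses no measured value. All 9 were found by gene identifier among the 13006 genes of the deposited table, and all 9 were among the 12918 genes tested. Poly(A) RNA was sequenced from livers of mice labelled Humanized PXR-CAR-CYP3A4/3A7, a genotype that all groups shared, with 4 libraries in each of 4 groups. The labels give no age, sex or background strain, and none of the libraries is a non-humanized control.

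CV is the vehicle control given propylene glycol. CM received the ligand MI763F at 2.5 mg/kg by mouth on 6 days from day 2, without estrogen. EV received ethinylestradiol, a synthetic estrogen used to induce cholestasis (impaired bile flow), at 10 mg/kg under the skin over 7 days. EM received ethinylestradiol and MI763F at those doses. MI763F is described in the series as a ligand of the constitutive androstane receptor (CAR), a nuclear receptor of drug and bile acid metabolism. It was formulated in DMSO, PEG300 and corn oil, and the labels do not say whether CV and EV received that mixture. Whether libraries of a group came from separate mice is not stated library by library, and the p-values then reflect library-to-library spread alone, which may be technical. The comparisons ask how the exporters differ with the estrogen, with the ligand, and with the ligand during estrogen treatment.

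Bile is formed when hepatocytes pump solutes into the canaliculus, and water follows. Abcb11, the bile salt export pump, secretes conjugated bile salts. Abcb4 moves phosphatidylcholine to the outer leaflet, where bile salts extract it, and the Abcg5/Abcg8 heterodimer adds cholesterol and plant sterols. Abcc2 exports bilirubin glucuronides and glutathione conjugates, and Abcg2 exports sulfated conjugates, drugs and porphyrins. Abcc3 and Abcc4 lie on the basolateral side and return conjugates and bile acids to the blood. Atp8b1 flips phospholipid inward and helps keep the canalicular membrane stable, with Tmem30a as its partner subunit.

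The upstream sequences of the exporters with the larger estrogen-associated falls are shown because these stretches carry recognition letters of nuclear receptors or, for the sterol pair, are shared by both genes. RefSeq promoter entries (build GRCm38.p6) were found for 7 of the 9 genes, 11 entries in all. Abcc3 and Atp8b1 had no entry. The searched letters, on both strands, were the receptor hexamer AGGTCA, the classical FXR element (AGGTCA, any 1 base, then its reverse complement TGACCT), the GATA box AGATAA, and the estrogen response element (GGTCA, any 3 bases, then TGACC). The hexamer can lie within a match to the FXR element, which is called the inverted repeat here. The Abcb11 stretch is the 250 bases before the start site, chr2:69342617-69342866 on the minus strand. Its capitals mark the closest match to the inverted repeat, at -63 to -51 from the start, with the single substitution T4C counted from the 5′ end of the repeat.
Abcb11: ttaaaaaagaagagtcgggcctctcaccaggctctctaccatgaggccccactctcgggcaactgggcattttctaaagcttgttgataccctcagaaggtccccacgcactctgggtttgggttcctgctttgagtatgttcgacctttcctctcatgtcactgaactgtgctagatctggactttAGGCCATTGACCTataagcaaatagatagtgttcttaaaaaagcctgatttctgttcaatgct

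The Abcc2 stretch is the 250 bases before its start site, chr19:43782058-43782307 on the plus strand, with an AGGTCA hexamer at -49 to -44 in capitals.
Abcc2: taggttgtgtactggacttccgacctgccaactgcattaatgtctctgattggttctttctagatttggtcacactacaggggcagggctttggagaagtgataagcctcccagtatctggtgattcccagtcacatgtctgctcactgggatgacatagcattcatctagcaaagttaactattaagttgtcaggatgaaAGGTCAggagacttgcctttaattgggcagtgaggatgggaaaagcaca

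Abcg5 and Abcg8 start in opposite directions from chromosome 17, and the 109 bases between their start sites, chr17:84683012-84683120 on the plus strand, are upstream of both. Abcg8 has a further entry, chr17:84676052-84676351 on the plus strand, which does not border this stretch and held no GATA box upstream. The capitals mark 2 GATA boxes, which read AGATAA on the other strand.
Abcg5-Abcg8: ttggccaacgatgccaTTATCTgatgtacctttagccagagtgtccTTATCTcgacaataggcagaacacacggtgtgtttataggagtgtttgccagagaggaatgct

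Among 32851 RefSeq windows of 250 upstream bases, 14% held AGGTCA, and 0.0791% held the inverted repeat with up to 1 mismatch. In windows of 109 bases, 3.98% held at least 1 AGATAA and 0.186% held at least 2. The estrogen response element stood in 0.0639% of the 250-base windows and in none of the exporters' entries. The hexamer was not limited to exporters that fell: Abcg2, which rose, had AGGTCA 2 times in one of its 3 entries, and once in another, at -197. A match is a string of letters and not a binding site, and its absence says only that the letters are not in that window.

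Library totals ran from 14115384 to 21473227 counts. Values are CPM (counts scaled to a common library size) after scaling by TMM factors, which equalize the bulk of genes between libraries. The factors were 0.833 to 0.91 in the libraries without ethinylestradiol and 1.1 to 1.23 in those with it. Replacing them by the plain totals moved the median log2 difference of all genes in EV against CV from 0.004 to 0.489, so the falls and rises below are relative to the bulk of genes. On principal components, CM replicate 2 and EM replicate 1 stood apart from their groups. The CV libraries were split on component 2 (6.17% of the variance). CV replicates 1 and 2 were at 35.6 and 45.2 there, and CV replicates 3 and 4 at 1.13 and 1.47. The part of this split in the comparisons with CV was not tested. The labelled tissue matched its markers: the summed level of 6 hepatocyte markers was 81500 to 107000 CPM in CV. It was 30900 to 38700 CPM in EV, where 5 of the 6 fell and 1 rose. Of 8 macrophage markers 7 rose, from a summed level of 253 to 644 CPM in CV to 1380 to 1630 CPM in EV, and of 6 sinusoidal endothelial markers 5 rose, from 69.7 to 155 CPM to 194 to 212 CPM. In bulk samples, fewer cells of a type and less RNA per cell cannot be told apart, and the part of these markers in the exporter results was not tested.

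Under ethinylestradiol alone, 7 of the 9 exporters fell and 1, Abcg2, rose, while Abcc4 was not called (EV against CV, edgeR's quasi-likelihood test, adjusted p under 0.05 over all genes). Over all genes tested, 24.9% were called lower and 25.5% higher in that comparison. The EV and CV libraries did not overlap for 8 of the 9 exporters, against 47.3% of all genes. The median log2 difference of the exporters was -0.48, beside 0.004 for all genes. With library totals as the scale, 54.6% of all genes were called higher and 10.3% lower; 4 exporters were then called lower (Abcb11, Abcc2, Abcg5, Abcg8) and 1 higher (Abcg2), and Abcb4, Abcc3 and Atp8b1 lost their falls.

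**Figure D1:**
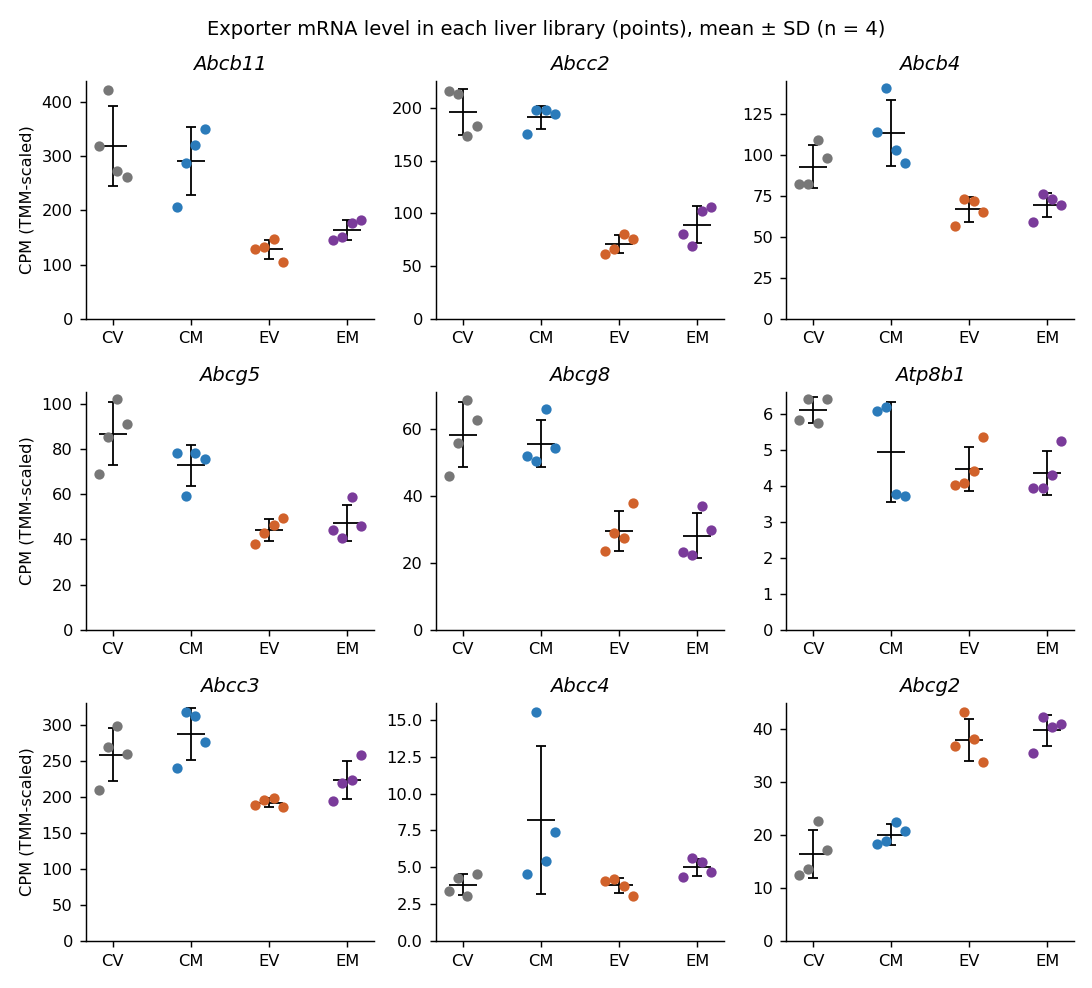
mRNA level of each exporter in TMM-scaled CPM (vertical axes, each from 0) in the 4 groups (horizontal axes); each point is a library, and the dash and bars are the mean ± SD of 4. The EV and EM points lie below the CV points for Abcb11, Abcc2, Abcb4, Abcg5, Abcg8 and Atp8b1 and above them for Abcg2, on this scale.

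Abcb11 stood at 319, 423, 273 and 262 CPM in the CV libraries and at 128, 132, 148 and 105 CPM in EV. Every EV library was below the lowest CV library, and the EV level was 40.2% of that in CV. The log2 difference was -1.32 ± 0.18 (SE; edgeR, adjusted p = 1.86e-05). CV replicate 2 was the highest of all 16 libraries, and the CV group had a coefficient of variation of 23.1% against 13.8% in EV.

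Abcc2 had the largest fall of the 9 in this comparison, from 216, 213, 173 and 183 CPM in CV to 61.1, 66.5, 80.6 and 75.9 CPM in EV. The groups were far apart, with the lowest CV library above the highest EV library by more than the spread within either group. The EV level was 36.2% of CV (log2 difference -1.47 ± 0.13 SE, edgeR adjusted p = 5.11e-07).

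Abcb4, the phosphatidylcholine floppase, read 82.4, 82.0, 109 and 98.1 CPM in CV and 56.8, 73.4, 71.8 and 65.3 CPM in EV. The groups did not overlap, but the gap was narrow. The log2 difference was -0.48 ± 0.13 (SE; edgeR adjusted p = 0.0079), and with library totals it was 0.01 and not called.

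The partners of the sterol pump fell by nearly the same amount. Abcg5 went from 68.8, 85.4, 102 and 91.2 CPM in CV to 38.1, 42.7, 46.3 and 49.3 CPM in EV (log2 difference -0.98 ± 0.14 SE, edgeR adjusted p = 3.8e-05). Abcg8 went from 46.1, 55.8, 68.7 and 62.6 CPM to 23.7, 28.9, 27.4 and 37.8 CPM (log2 difference -0.99 ± 0.18 SE, edgeR adjusted p = 0.000291). No EV library reached the lowest CV library for either gene. These are the partners that share the 109-base stretch printed above, and the part of that stretch in the falls was not tested.

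Atp8b1, the flippase, was a low-level transcript, at 5.84, 6.42, 5.77 and 6.43 CPM in CV and 4.04, 4.08, 4.41 and 5.36 CPM in EV. EV replicate 4 came close to the CV range without entering it. The log2 difference of -0.45 ± 0.18 (SE) was at the threshold (edgeR adjusted p = 0.0487). It was not called without any single CV library or without EV replicate 1, 2 or 3 (adjusted p = 0.0619 to 0.109), and with library totals it was 0.03. Tmem30a, the subunit that P4-type flippases need to leave the endoplasmic reticulum, had a log2 difference of -0.02 ± 0.068 (SE, edgeR adjusted p = 0.821; 0.46 with library totals, called higher).

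On the basolateral side, Abcc3 read 209, 269, 298 and 259 CPM in CV and 189, 196, 198 and 186 CPM in EV. The EV libraries lay close together, just under the lowest CV library. The log2 difference was -0.43 ± 0.12 (SE; edgeR adjusted p = 0.00589), and with library totals it was 0.05 and not called. Abcc4, the other basolateral pump, was at 3.42, 4.28, 3.02 and 4.54 CPM in CV and 4.08, 4.18, 3.74 and 3.05 CPM in EV. These ranges overlapped, and the log2 difference was -0.02 with a 95% interval of -0.67 to 0.63 (edgeR adjusted p = 0.965; 0.46 with library totals, not called). The deposited Abcc4 values in these libraries were 44 to 88 estimated counts, which look length-rescaled and may not equal reads. The SE was 0.31 in the fit of all 16 libraries, 0.18 with only the CV and EV libraries fitted, and 0.19 without CM replicate 2 and EM replicate 1.

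Abcg2 moved the other way, from 12.4, 13.5, 22.6 and 17.1 CPM in CV to 36.8, 43.3, 38.2 and 33.8 CPM in EV. All EV libraries were above all CV libraries, and the level in EV was 2.31 times that in CV. The log2 difference was 1.21 ± 0.15 (SE; edgeR adjusted p = 1.16e-05), and 1.70 with library totals. Macrophage, endothelial and erythroid markers rose in the same comparison: the erythroid sum (3 markers tested, all called higher) was 204 to 382 CPM in CV and 492 to 743 CPM in EV. Their part in the Abcg2 result was not tested.

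**Figure D2:**
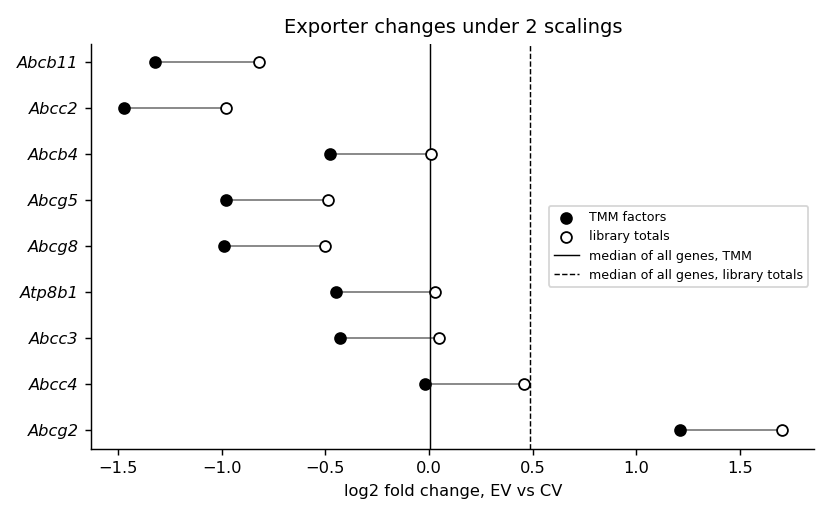
log2 difference of EV against CV for each exporter (horizontal axis) with TMM factors (filled circles) and with library totals (open circles); vertical lines give the median of all genes under each scaling, 0.004 and 0.489. Abcb4, Atp8b1 and Abcc3 move to just above 0 with library totals, while Abcb11, Abcc2, Abcg5 and Abcg8 stay below 0 and Abcg2 above.

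Per kilobase of principal transcript, the CV order was Abcb11 at 63.5 ± 15 CPM per kb (SD, n = 4), Abcc3 at 51.8 ± 7.4, Abcg5 at 36.9 ± 5.9, Abcc2 at 24.4 ± 2.7, Abcb4 at 22.8 ± 3.3 and Abcg8 at 15.9 ± 2.6 CPM per kb. Below these came Abcg2 at 2.87 ± 0.8, Atp8b1 at 0.91 ± 0.053 and Abcc4 at 0.667 ± 0.12 CPM per kb (SD, n = 4). The neighbours Abcb11 and Abcc3, Abcc3 and Abcg5, and Abcc2 and Abcb4 overlapped in their CV libraries. In EV the order opened with Abcc3 at 38.4 ± 1.1 CPM per kb, followed by Abcb11 at 25.5 ± 3.5 (SD, n = 4), with no overlap between these levels. Abcg2 reached 6.65 ± 0.7 CPM per kb in EV, where its libraries overlapped those of Abcg8 at 8.03 ± 1.6 CPM per kb. Lengths came from an annotation of an earlier build, and with the union of all annotated exons Abcb4 in CV was 9.91 CPM per kb, below Abcg8 at 15.5. The deposited values look already rescaled for gene length, so this division may correct for length a second time. Undivided, the CV order was Abcb11 at 319 CPM, Abcc3 at 259, Abcc2 at 196, Abcb4 at 93.0, Abcg5 at 86.8 and Abcg8 at 58.3. Undivided means in EV were 38.0 CPM for Abcg2 and 29.4 CPM for Abcg8.

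The ligand without estrogen left no exporter past the threshold. In CM against CV, edgeR called 0 of the 9 exporters. An unadjusted edgeR p under 0.05 was found for 1 exporter (Abcc4), against 1362 of the 12918 genes tested. DESeq2 called 1 (Abcc4), and its share over all genes is not given here. Over all genes edgeR called 0.0929%, and 4.13% had libraries that did not overlap, against 0 of the 9 exporters. The 12 genes called became 4 when CV replicate 1 was left out, 7 when CM replicate 2 was, and 39 when CM replicate 4 was. The exporters' median log2 difference was -0.04.

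Abcc4 was 4.51, 15.5, 5.40 and 7.41 CPM in the CM libraries, against 3.02 to 4.54 CPM in CV. CM replicate 2 was more than double any other library, and CM replicate 1 lay inside the CV range. The log2 difference was 1.11, with a 95% interval of 0.46 to 1.76 (edgeR adjusted p = 0.208; DESeq2 adjusted p = 0.039). Without CM replicate 2 it was 0.60 (edgeR adjusted p = 0.369).

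The other exporters in CM were at 81.0% (Atp8b1) to 122% (Abcb4 and Abcg2) of their CV levels, and none was called. Abcb11 was at 207, 287, 320 and 351 CPM, with a log2 difference of -0.13 and a 95% interval of -0.50 to 0.24. Abcc2 was at 175, 198, 198 and 194 CPM (interval -0.32 to 0.24), and Abcc3 at 240, 318, 313 and 277 CPM (interval -0.10 to 0.40). Their intervals exclude a halving or a doubling, but not smaller changes. Abcb4 was at 114, 141, 103 and 94.9 CPM in CM, a log2 difference of 0.28 (interval -0.00 to 0.57, edgeR adjusted p = 0.472). Log2 differences were 0.29 for Abcg2 (interval -0.04 to 0.62), -0.25 for Abcg5 (-0.55 to 0.04) and -0.07 for Abcg8 (-0.44 to 0.31). Atp8b1 split into 6.09 and 6.22 CPM in replicates 1 and 2 and 3.78 and 3.73 CPM in replicates 3 and 4. Its log2 difference was -0.30 (interval -0.69 to 0.08, edgeR adjusted p = 0.597).

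**Figure D3:**
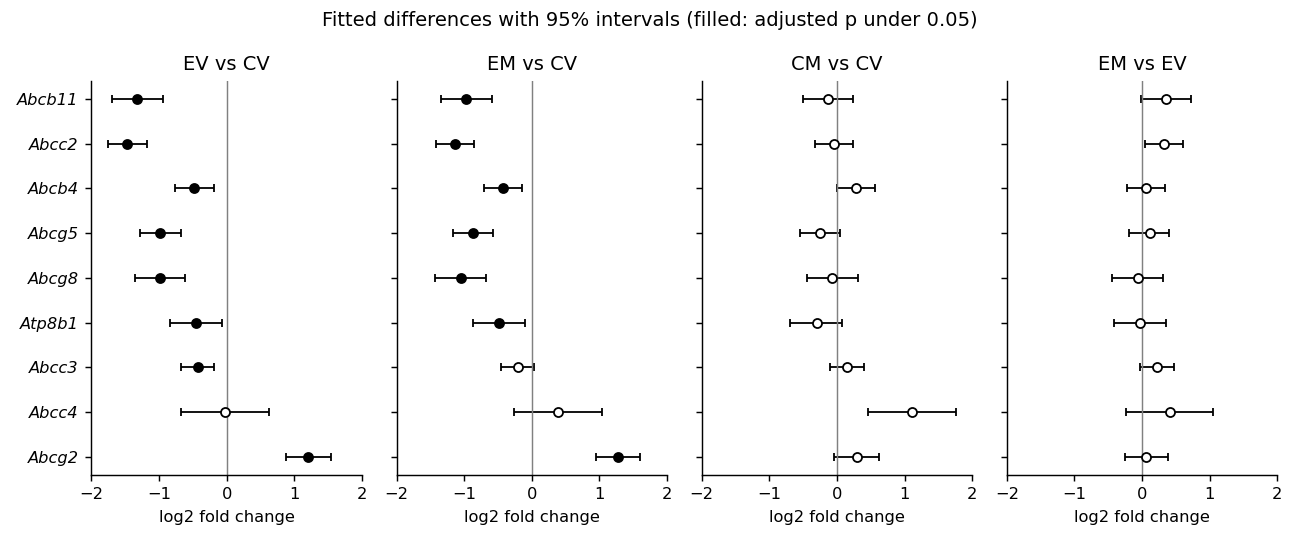
Fitted log2 differences (horizontal axes) with 95% intervals for each exporter in 4 comparisons; filled circles have an adjusted p under 0.05 (edgeR), and open circles do not. Filled circles appear for 8 exporters in EV against CV and 7 in EM against CV, and none in CM against CV or EM against EV; intervals of neighbouring panels share libraries.

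In estrogen-treated mice the ligand also left no exporter past the threshold. In EM against EV, edgeR called 0 of the 9 exporters, and DESeq2 called 0. An unadjusted edgeR p under 0.05 was found for 1 exporter (Abcc2), against 1642 of the 12918 genes tested. Over all genes 1.69% were called, 218 genes; every single library left out moved that number by over 1.5 times, to between 36 (without EV replicate 2) and 127 (without EV replicate 3), or to 445 without EM replicate 1. The EM and EV libraries did not overlap for 1 exporter, Abcc4, against 10.5% of all genes, and the exporters' median log2 difference was 0.11.

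Abcc2 in EM was 80.6, 68.6, 102 and 106 CPM, against 61.1 to 80.6 CPM in EV. EM replicates 3 and 4 were above the EV range, replicate 1 was level with its top and replicate 2 was within it. The log2 difference was 0.33, with a 95% interval of 0.05 to 0.61 (edgeR adjusted p = 0.282). Abcb11 in EM was 145, 151, 176 and 182 CPM, against 105 to 148 CPM in EV. EM replicates 2 to 4 were above the EV range and replicate 1 just under its top, and the log2 difference was 0.35 with a 95% interval of -0.02 to 0.72 (edgeR adjusted p = 0.43).

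Abcc3 in EM was 194, 220, 223 and 258 CPM, with 3 libraries above all of EV (log2 difference 0.22, interval -0.03 to 0.47, edgeR adjusted p = 0.463). Abcc4 in EM was 4.33, 5.61, 5.37 and 4.67 CPM, all above the highest EV library at 4.18 CPM (log2 difference 0.41, interval -0.24 to 1.05, edgeR adjusted p = 0.647). The remaining 5 exporters had log2 differences of -0.06 to 0.11. For Abcg2 the interval was -0.25 to 0.38, and for Abcg8 it was -0.44 to 0.31.

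The difference between the ligand's effect with and without estrogen was itself tested. The edgeR interaction called 0 of the 9 exporters, against 0.132% of all genes, and DESeq2 called 0. An unadjusted edgeR p under 0.05 was found for 0 exporters, against 1759 of the 12918 genes tested. The interaction was 0.48 for Abcb11 (95% interval -0.04 to 1.00, adjusted p = 0.409) and 0.37 for Abcc2 (interval -0.03 to 0.76, adjusted p = 0.408). For Abcc4 it was -0.70 (interval -1.61 to 0.21, edgeR adjusted p = 0.496), and -0.19 without CM replicate 2 (adjusted p = 0.839). The 17 genes called by the interaction over all genes became 208 without EM replicate 1 and 95 without CM replicate 4. They became 26 to 28 without CV replicate 3, EV replicate 3 or EM replicate 2, and 10 without EV replicate 1, EV replicate 2 or EM replicate 4.

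With both treatments, most exporters still differed from vehicle. In EM against CV, 6 of the 9 exporters were lower and 1 was higher (edgeR), against 20% of all genes called lower and 20.7% higher. The libraries did not overlap for 7 exporters, against 37.5% of all genes. Abcb11 was at 51.2% of its CV level (log2 difference -0.97 ± 0.17 SE, edgeR adjusted p = 0.000441), and Abcc2 at 45.5% (-1.13 ± 0.13 SE, adjusted p = 1.18e-05).

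Abcg5 in EM was 44.3, 40.6, 59.0 and 45.8 CPM and Abcg8 was 23.4, 22.4, 37.1 and 29.7 CPM. EM replicate 3 was the highest for both genes, and all 4 libraries were below CV (log2 differences -0.87 and -1.05, edgeR adjusted p = 0.000169 and 0.000266). Abcg2 in EM was 35.5, 42.3, 40.4 and 40.9 CPM, 2.42 times CV (edgeR adjusted p = 1.55e-05).

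Abcb4 in EM was 59.0, 76.3, 72.9 and 69.7 CPM, below all CV libraries (log2 difference -0.42, edgeR adjusted p = 0.0204). Its call was lost without EM replicate 1 (adjusted p = 0.0674), one of the libraries that stood apart, without CV replicate 3 (0.0692), and with library totals, where the difference was -0.05. Atp8b1 in EM was 3.95, 3.96, 4.31 and 5.26 CPM (log2 difference -0.48, edgeR adjusted p = 0.0438). That call was lost without any single CV library or EM replicate 1, 2 or 3 (adjusted p = 0.0574 to 0.106), and with library totals, where the difference was -0.11. Abcc3 was not called, at -0.21 (edgeR adjusted p = 0.16; -0.30 and adjusted p = 0.0413 without CV replicate 1), nor was Abcc4 at 0.39 (adjusted p = 0.337).

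Set against the ligand alone, the estrogen gave a like list. In EM against CM, 6 of the 9 exporters were lower and 1, Abcg2, was higher (edgeR), against 18.6% of all genes called lower and 19.4% higher. This comparison shares its EM libraries with the previous one. Abcb11 had a log2 difference of -0.83, Abcc2 of -1.10, Abcb4 of -0.71, Abcg8 of -0.98, Abcg5 of -0.62 and Abcg2 of 0.99 (edgeR adjusted p = 1.7e-05 to 0.00273 for these 6). Abcc3, at -0.36 (edgeR adjusted p = 0.0223), was not called without CM replicate 2 or 3 or without EM replicate 1 or 2 (adjusted p = 0.0503 to 0.0737). It was -0.25 without CM replicate 2 and EM replicate 1 together (adjusted p = 0.153), and 0.01 with library totals. With library totals Abcb4 (-0.33, adjusted p = 0.0538) and Abcg5 (-0.24, adjusted p = 0.155) were also not called. Abcc4 was not called, at -0.72 (edgeR adjusted p = 0.0711), but was called without CM replicate 1 (-0.92, adjusted p = 0.0204) or CM replicate 3 (-0.87, adjusted p = 0.0397). Without CM replicate 2 the Abcc4 difference was -0.21 (edgeR adjusted p = 0.431), and with library totals it was -0.35 (adjusted p = 0.354). Atp8b1 was at -0.18 (edgeR adjusted p = 0.475).

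Ratios of 2 exporters within a library do not depend on the scaling between libraries, and they are given without a test. The ratio of the bile salt pump Abcb11 to the phospholipid floppase Abcb4 averaged 3.39 in CV (2.49 to 5.16) and 1.91 in EV (1.61 to 2.25), with no overlap. It averaged 2.35 in EM (1.98 to 2.61), which overlapped both CV and EV, and 2.55 in CM (1.82 to 3.70). The CM libraries lay on both sides of the EV and CV averages.

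The balance between basolateral Abcc3 and canalicular Abcc2 went from 1.32 in CV (0.97 to 1.73) to 2.72 in EV (2.45 to 3.09). EM, at 2.53 (2.19 to 3.21), stayed above all CV and CM libraries, and CM was at 1.49 (1.37 to 1.60). Abcc3 to Abcb11 went from 0.82 in CV to 1.51 in EV, also without overlap, and was 1.37 in EM. The ratio of Abcc4 to Abcc2 was 0.0193 in CV (0.0158 to 0.0248), 0.0529 in EV and 0.0565 in EM. It was 0.0381 in CM (0.0258 to 0.0783), above all CV libraries, with CM replicate 2 the highest and CM replicate 1 just over the CV range.

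Abcg2 to Abcb11 showed the widest shift of the 7 ratios examined, from 0.0509 in CV (0.032 to 0.0828) to 0.297 in EV (0.257 to 0.329). EM was at 0.244 (0.224 to 0.28) and CM at 0.0699. Abcg5 to Abcg8 was nearly constant between CV at 1.49 (1.46 to 1.53) and EV at 1.51 (1.31 to 1.69). It was 1.31 in CM and 1.70 in EM (1.54 to 1.89), where all libraries were above those of CV and CM. Atp8b1 to Abcb11 was 0.0195 in CV, 0.0349 in EV (0.0297 to 0.0508) and 0.0267 in EM (0.0245 to 0.0289), with every EM library below every EV library.

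**Figure D4:**
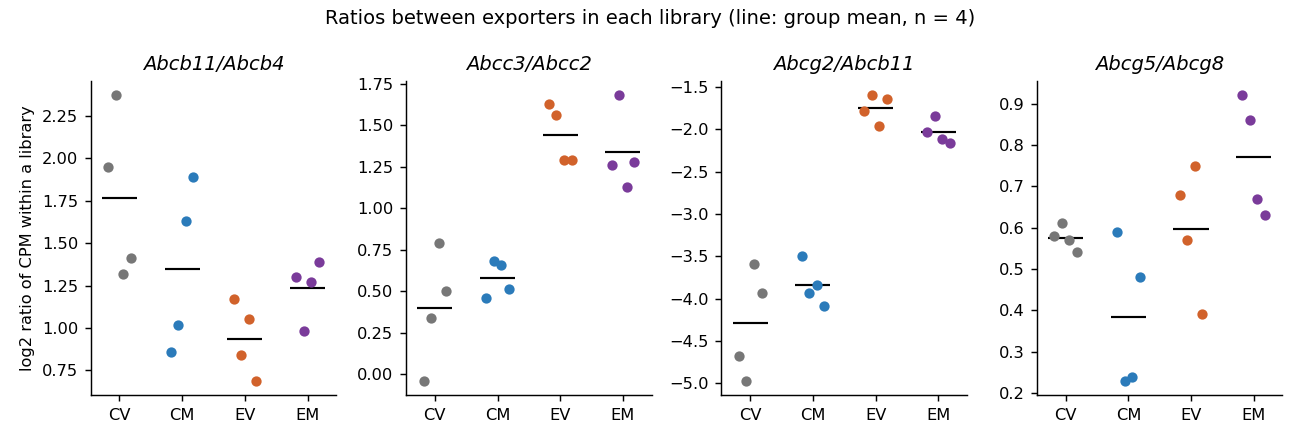
log2 ratio of CPM of 2 exporters within each library (vertical axes, which do not start at 0), by group; points are libraries and lines are group means of 4. EV and EM stand above CV and CM for Abcc3/Abcc2 and Abcg2/Abcb11, EV stands below CV for Abcb11/Abcb4, and Abcg5/Abcg8 has its highest mean in EM.

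The genes with the pattern most like each exporter were found by the mean absolute difference of log2 CPM, centred on the CV mean, over 16 libraries and 11198 genes. The 16 libraries share the 4 treatments, so much of this likeness is the shared estrogen difference. Abcg8 had Abcg5 as its nearest gene of all, at 0.133, and from Abcg5 its partner was second after Sphk2, a sphingosine kinase, at 0.122. Abcb11 lay nearest to Hibadh, an enzyme of valine breakdown (0.135), Rida (0.15) and Dgcr6 (0.151), and Abcc2 to Hgd, an enzyme of tyrosine breakdown (0.121), Fam214a (0.124) and Hint2 (0.129). Abcb11 and Abcc2 were 0.205 apart, which made Abcc2 the gene of rank 77 from Abcb11.

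Abcc3 was nearest to Esd (0.0796), Immt (0.0859) and the peroxiredoxin Prdx6 (0.0908), and Abcb4 to the lysophospholipid acyltransferase Agpat3 (0.109). Abcg2 was nearest to Col6a2, a chain of collagen VI (0.133), Spats2 (0.145) and the ubiquitin ligase Cbl (0.159). Abcc4, whose highest library was CM replicate 2, was nearest to Aldh1a7 (0.22), Entpd5 (0.223) and Aox1 (0.243), and these are looser matches than for the others. Atp8b1 was nearest to Pdlim5 (0.13).

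Other ABC transporters were split under estrogen: of 29 tested in EV against CV, 12 were lower, 11 higher and 6 not called (edgeR), and with library totals 7 were lower and 14 higher. The shares over all genes were 24.9% lower and 25.5% higher, and with library totals 10.3% and 54.6%. Abcc6, a hepatocyte basolateral transporter needed for release of ATP and pyrophosphate, fell by 2.20 on the log2 scale (adjusted p = 4.37e-08). Abcb6, a porphyrin transporter, was at -1.11 and Abca3 at -0.93, both called lower. Abcg3, a rodent relative of Abcg2, rose by 3.00 (edgeR adjusted p = 6.91e-07) from 1.89 ± 0.66 CPM in CV to 15.2 ± 2.4 CPM in EV (SD, n = 4). Abcb1a, a drug efflux pump, rose by 0.89 (edgeR adjusted p = 0.00643). Their median was -0.17, beside -0.48 for the 9 exporters.

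**Figure D5:**
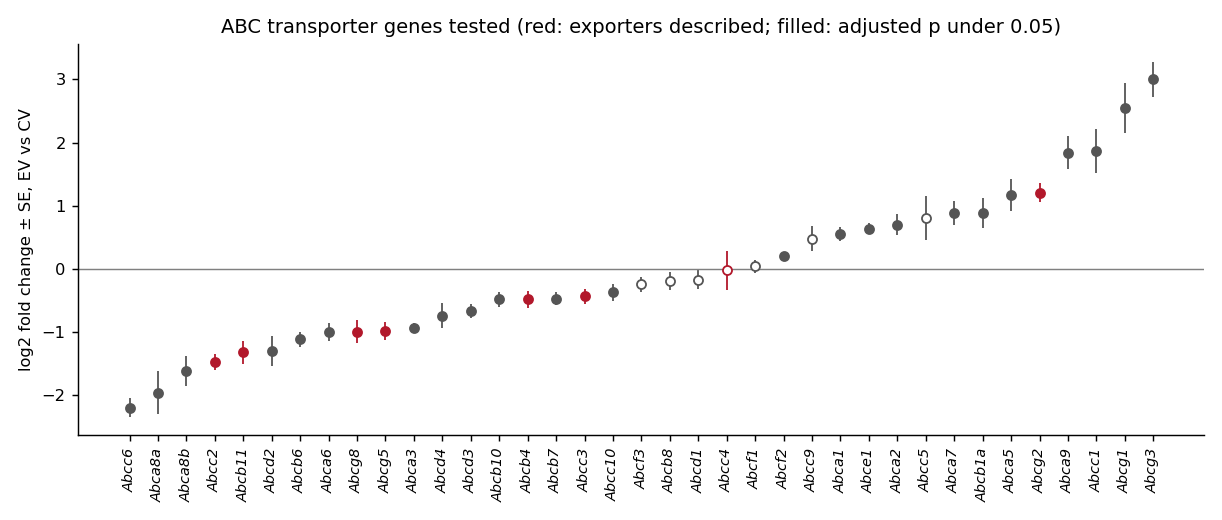
log2 difference ± SE of EV against CV (vertical axis) for the 8 ABC exporters (red) and the 29 other ABC transporter genes tested (grey), in order of size; filled circles have an adjusted p under 0.05 (edgeR). The exporters other than Abcg2 and Abcc4 lie below 0, among other family members on both sides of it; Abcc6 is lowest at -2.20 and Abcg3 highest at 3.00.

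In EM against EV, edgeR called 2 of these 29 other ABC genes, against 1.69% of all genes. Both were higher: Abcc6 at 0.71 (edgeR adjusted p = 0.0304) and Abca3 at 0.32 (edgeR adjusted p = 0.0392). With library totals 0 of the 29 were called. Of 8 other P4-type flippase genes tested in EV against CV, 2 were higher, 2 lower and 4 not called (edgeR). With library totals 5 were higher and 0 lower. Among all genes, 25.5% were called higher and 24.9% lower, and with library totals 54.6% and 10.3%. Atp10d rose by 1.29 and Atp9a by 0.57, and Atp11b was lower at -0.50 (edgeR). Atp11b was at -0.02 with library totals and not called.

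Uptake carriers and other efflux carriers fell with the exporters: 7 of 11 tested were lower and 1 higher in EV against CV (edgeR), and with library totals 6 were lower and 3 higher. The shares over all genes were 24.9% lower and 25.5% higher, and with library totals 10.3% and 54.6%. Slc10a1, the main sodium-dependent bile acid importer, was at -2.44 ± 0.18 (SE, adjusted p = 6.58e-08), and Slc47a1, a canalicular cation exporter, at -2.06. Slc22a7, an organic anion carrier, went from 30.3 ± 7.1 CPM to 0.265 ± 0.12 CPM (SD, n = 4). Slc10a2, the apical bile acid carrier of cholangiocytes, rose by 1.53 (edgeR adjusted p = 0.00145). Slc51a and Slc51b, the basolateral bile acid exporter subunits, were not analysed here.

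In EM against EV, edgeR called 2 of the 11 carriers higher and 0 lower, against 1.69% of all genes. Library totals also gave 2 higher. Slc47a1 was among those called by edgeR, at 0.97 (adjusted p = 0.00452). The carrier calls were not checked with single libraries left out. Slc10a1 was at 0.67 (edgeR adjusted p = 0.0647). Whether the ligand's effect on these carriers differs from that on the exporters was not tested.

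Among 19 regulator genes tested in EV against CV, 13 were lower and 1 higher (edgeR, and with library totals 5 lower and 3 higher). The shares over all genes were 24.9% lower and 25.5% higher, and with library totals 10.3% and 54.6%. Nr1h4, which encodes FXR, the bile acid receptor that activates Abcb11, was at -0.74 (adjusted p = 0.000268; -0.26 and adjusted p = 0.0987 with library totals). Its partner Rxra was at -0.73, and the hepatocyte factors Cebpa and Nr5a2 were at -1.63 and -1.04, all called lower under both scalings. Nfe2l2, which encodes NRF2, an activator of Abcc transporters and antioxidant genes, rose by 1.29 (edgeR adjusted p = 1.76e-05). Nr0b2, a target and feedback repressor downstream of FXR, was at -0.05 (edgeR adjusted p = 0.918), and Nr1h3, which encodes LXR alpha, the sterol receptor that activates Abcg5 and Abcg8, was at -0.05 (adjusted p = 0.606; 0.43 with library totals, called higher).

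Target genes of these receptors moved in both directions, as did genes as a whole. Among all genes, 25.5% were called higher in EV against CV and 24.9% lower, and with library totals 54.6% and 10.3%. Of 10 LXR targets, 3 were higher and 3 lower in EV against CV (edgeR, and with library totals 6 higher and 2 lower). The cholesterol exporters Abca1 and Abcg1 rose by 0.56 and 2.55 and Smpdl3a by 1.22, while the lipogenic genes Scd1 and Srebf1 were at -5.51 and -1.55. Of 6 FXR targets, 3 were lower (Fetub at -2.13, Fgfr4 at -1.13, Sdc1 at -0.34) and Apoc2 rose by 2.27; with library totals 2 were lower, and Sdc1 was 0.14 and not called. Of 11 NRF2 targets, 7 were higher and 1 lower (with library totals 9 and 1): Srxn1 rose by 1.38, Hmox1 by 1.55 and Gsr by 0.83, and Gstm1 was at -1.30.

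Of 22 genes for canalicular anchoring, junctions and vesicle traffic, 9 were higher and 4 lower in EV against CV (edgeR, and with library totals 13 and 2). Among all genes, 25.5% were called higher and 24.9% lower, and with library totals 54.6% and 10.3%. Pdzk1, a scaffold that binds the tails of apical transporters, was at -1.29 (adjusted p = 4.57e-07). The tight junction gene Cldn2 rose by 1.53. Moesin (Msn), the membrane-cytoskeleton linker abundant in leukocytes and endothelium, rose by 2.12, while its hepatocyte relative Rdx, which anchors Abcc2, was at 0.04 (edgeR adjusted p = 0.667; 0.52 with library totals, called higher). In EM against EV, edgeR called 1 of the 22, against 1.69% of all genes. This was Pdzk1, higher by 0.59 (edgeR adjusted p = 0.0208). With library totals 0 were called.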

How the data were processed

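Liver poly(A) RNA from 16 libraries was measured in 4 groups of 4. The submitters' processing notes name GRCm39, STAR and Salmon, with no versions. The deposited values are estimated counts: whole numbers whose smallest values fall with gene length, as for length-rescaled estimates. They were used as deposited, with no rounding needed. Symbols were matched by Ensembl identifier for 12692 of 13006 genes (GENCODE M21, an earlier build, which also gave lengths). The exporters are set by name, by a rule that uses no measured value, but they and the lists were chosen with earlier results of these data known.

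One model over all 16 libraries, with a coefficient per group, was fitted with edgeR 4.0.16 in R 4.3.3 (TMM, filterByExpr, robust quasi-likelihood test), and p-values were adjusted by Benjamini and Hochberg's method for the 12918 genes tested, with calls under 0.05; intervals are 95%. The fit was also run on counts simulated from its own estimates of spread, with most genes unchanged. Those counts cannot check the scaling where many genes change, as in EV against CV. Alternatives were RLE factors, library totals, other filters, a replicate block, only the groups compared, DESeq2 1.42.0 and leaving out each library. The genes named were all 9 exporters, up to 4 called genes per list by smallest p and a few set by name, and the 3 nearest patterns; Slc10a2 was singled out after its values were seen. TMM equalizes most genes, so a change shared by most genes would not show. A few genes that these rules select are not reported here.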

Additional observations from a re-analysis of the deposited data

Results flagged for a closer look

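In 64 groups of 4 libraries (each exporter and each ratio in each group), 3 had a library farther from the other 3 than Dixon's 95% limit; chance flags about 1 in 20 groups. Abcc2 in CM replicate 1 was 175 CPM, below the other CM libraries at 194 to 198 CPM, with a gap that was 0.841 of the range. Abcg5 in CM replicate 2 was 59.1 CPM, below 75.5 to 78.2 CPM in the others (0.858 of the range). The log2 ratio of Atp8b1 to Abcb11 in EV replicate 4 was -4.3, above the other EV libraries (0.883 of the range); that library had the lowest Abcb11 and the highest Atp8b1 of EV.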

How the results depend on the processing

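Counts of exporters called moved by more than 1.5 times under these settings only: with library totals, EV against CV had 5 called in place of 8 and EM against CM had 4 in place of 7; with DESeq2, CM against CV had 1 in place of 0. Library totals also turned the sign of called differences, to 0.01 for Abcb4, 0.05 for Abcc3 and 0.03 for Atp8b1 in EV against CV, and to 0.01 for Abcc3 in EM against CM; the scale moves every gene of a comparison by about the same amount. Leaving out single libraries gave 7 to 8 exporters called in EV against CV, 5 to 7 in EM against CV, 6 to 8 in EM against CM, and 0 in CM against CV and in EM against EV. Leaving out CM replicate 2 and EM replicate 1 together, a choice made after seeing the data, gave 8, 6 and 6 in the first 3. CV replicates 1 and 2, which lay apart from CV replicates 3 and 4 on principal components, were not left out together. Of 144 checks of single exporters in each comparison, 128 kept direction and call in EV against CV, 137 in CM against CV, 131 in EM against EV, 129 in EM against CV and 133 in EM against CM. Replicate numbers did not pair the libraries: over 24 same-numbered pairs the correlation of deviations was -0.0524 to 0.0957, and a library matched its own number best in 12 of 48 cases. With the replicate number as a block, 7 exporters were called in EV against CV and 6 in EM against CV; Atp8b1 lost its call in both (adjusted p = 0.0711 and 0.0663). Abcc4 and Atp8b1 had as few as 44 and 49 estimated counts in a library, which may not equal reads. The part of depth in their errors was not tested.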
